A study of Mus musculus with 24 samples.

Results

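The ratio of male to female RNA in the mouse urogenital sinus at 17.5 days post conception (dpc) was set against the ratio of dihydrotestosterone (DHT) to vehicle in female embryos 12 h after dosing, gene by gene. The arrays titled MvsF gave 5 pairs of pools and those titled H12 gave 3, with 2 dye-swapped arrays per pair. The ratios thus come from 16 of the 24 arrays of the series. The other 8 arrays, 4 pairs at 6 h, also entered the choice of probes and the estimate of each gene's spread. Genes were chosen by position alone: 17360 autosomal genes of 24717 measured were kept, and 630 X-linked, 11 Y-linked and 6716 genes without a chromosome in the gene table were left out. Values are log2 ratios, DHT over vehicle or male over female, so that 1 is a doubling. The difference is the male-female ratio minus the 12 h ratio.

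All embryos were C57BL/6J. For the 12 h pools, pregnant females received 50 mg/kg DHT or vehicle at 16.0 dpc, and the urogenital sinus of their female embryos was collected 12 h later. The male and female pools came from unmanipulated littermates collected at 17.5 dpc, a point that the labels also count as 48 h. The accessory ducts were removed, sex was read from the gonads, and tissue of several embryos was pooled. The comparisons therefore differed in embryo age, in the source and length of androgen exposure, in chromosomal sex and in the day of hybridisation, and these cannot be told apart. They shared no pool.

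The urogenital sinus is an endodermal tube wrapped in mesenchyme. In male embryos the fetal testes make testosterone, which the enzyme encoded by Srd5a2 turns into DHT, the stronger ligand of the androgen receptor. The receptor is first active in the mesenchyme, which signals to the epithelium, and epithelial buds then grow out and become the prostate. Males also make anti-Mullerian hormone, which acts through the receptor Amhr2 and which fetal ovaries do not make. The comparison asked how much of the male-female pattern a short DHT exposure of females shows.

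The arrays matched their labels. The Y-linked genes Ddx3y and Eif2s3y had mean male-female ratios of 2.38 and 2.65 and mean 12 h ratios of 0.05 and -0.02, and Xist had -5.69 and 0.16. Markers of the tissue (Hoxa13, Hoxb13, Hoxd13, Foxa1, Shh, Trp63, Krt5, Krt8, Upk2, Upk3a, Acta2, Epcam and Srd5a2) were well above background on 16 of 16 arrays. The median spot signal per array ranged from 102 to 151 for Cy3 and from 98.1 to 146 for Cy5. The 2 arrays of a 12 h pair correlated at -0.13 to 0.30 over genes, against 0.41 to 0.78 for the male-female pairs. The arrays of a 12 h pair thus agreed less over genes, and the lowest correlation was below 0. The mean ratios also spread less over genes at 12 h, with an SD of 0.11 against 0.15 in males. How much of the lower correlation this accounts for was not tested. The third 12 h pair stood apart for Afp. Afp, the main plasma protein of fetal liver and yolk sac, had 12 h ratios of -0.62, -0.46 and -6.92, and its part in the results was not tested beyond leaving out that pair. The mean of 21 skeletal muscle markers varied in both comparisons, with 0.04, 0.34 and 0.66 at 12 h and 0.21, -0.41, 1.36, -0.015 and 0.20 in males, and its part was not tested.

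A small set of genes rose both in DHT-treated females and in males, and 291 of the genes that differed between males and females had a ratio that differed from the 12 h ratio. Male and female pools differed in 1610 autosomal genes (9.27% of those tested; limma, adjusted p under 0.05), with 795 (4.58%) higher and 815 (4.69%) lower in males. DHT and vehicle pools differed in 53 (0.305%), with 24 (0.138%) higher and 29 (0.167%) lower. Both tests were passed in the same direction by 20 genes (0.115%), of which 16 were higher and 4 lower. The ratios themselves differed in 340 genes (1.96%), with the male-female ratio above the 12 h ratio in 164 (0.945%) and below it in 176 (1.01%). The difference was not called for 662 of the 795 genes higher in males and for 657 of the 815 lower, so for these the comparisons could not be told apart at this precision. The 53 and 20 rest on all 3 DHT pairs: leaving out any of them left 0 genes past the threshold at 12 h, with 1819 to 2088 at an unadjusted p under 0.05 against 2419 with all pairs. The 340 became 111 without 12 h replicate 1, 168 without replicate 2, 163 without replicate 3 and 212 without male-female replicate 4, and the 1610 became 992 without male-female replicate 4. With arrays centred by their median in place of loess, 97 ratios differed upwards and 204 downwards, 472 genes were higher and 822 lower in males, and 16 were higher and 2 lower at 12 h.

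**Figure D1:**
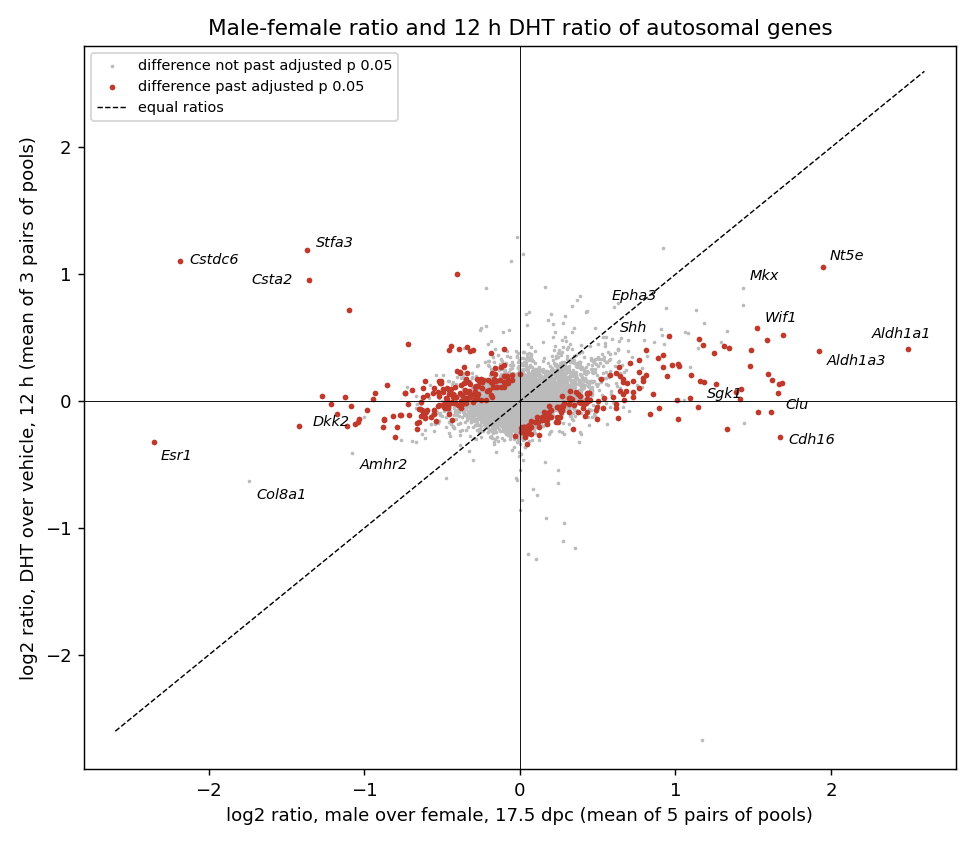
Each point is 1 of 17360 autosomal genes, with its male-female log2 ratio (mean of 5 pairs of pools) on the x axis and its 12 h DHT log2 ratio (mean of 3 pairs) on the y axis; red marks the 340 genes whose ratios differed past adjusted p 0.05 and the dashed line marks equal ratios. Nt5e and Mkx lie high on both axes, Aldh1a1 and Esr1 lie far out on the x axis and close to 0 on the y axis, and the stefin genes Cstdc6, Stfa3 and Csta2 lie in the upper left.

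Among the genes that rose in both, Nt5e had the largest values. Nt5e encodes CD73, an ectoenzyme that makes adenosine outside the cell. Its 12 h ratios were 1.11, 0.76 and 1.29, and its male-female ratios were 2.05, 1.72, 1.92, 1.95 and 2.09. Every pair of either kind was above 0 and the groups did not overlap. The mean of 1.06 ± 0.27 (SD, n = 3) at 12 h was a 2.08-fold increase (limma, adjusted p = 0.026), against 3.85-fold in males, and Nt5e was the 1 gene past both the threshold and a fold of 2 at 12 h. The difference of 0.89 (95% interval 0.50 to 1.28, adjusted p = 0.026) was lost without 12 h replicate 1 or 2 (adjusted p = 0.097 and 0.11) and without male-female replicate 4 or 5 (0.056 and 0.053). A second, dimmer Nt5e probe gave 0.06 at 12 h and 0.10 in males, so the probes disagree.

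Mkx, a homeobox gene of tendon and other connective tissue, had 12 h ratios of 0.83, 0.70 and 1.16 and male-female ratios of 1.46, 1.05, 1.59, 1.42 and 1.65. The largest 12 h value lay above the smallest male-female value. Mkx rose 1.86-fold with DHT (adjusted p = 0.026) and 2.7-fold in males, and the difference of 0.54 (0.22 to 0.85) did not pass (adjusted p = 0.094). Epha3, a receptor tyrosine kinase for ephrin-A ligands, had ratios of similar size in both. Its 12 h ratios were 0.66, 0.68 and 0.87 and its male-female ratios were 1.06, 0.68, 0.75, 1.07 and 1.15, and the groups overlapped. Its difference was 0.20 (-0.07 to 0.48, adjusted p = 0.48), so a male-female ratio higher by up to 0.48 is within the interval. A second Epha3 probe gave the reverse order, with 0.63 at 12 h and 0.48 in males.

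Wif1, a secreted inhibitor of Wnt ligands, also rose in both, but further in males. Its 12 h ratios were 0.57, 0.51 and 0.67 and its male-female ratios were 1.44, 1.26, 1.51, 1.73 and 1.69. All male-female values exceeded all 12 h values, and the difference of 0.95 (0.69 to 1.20) passed with adjusted p = 0.002. Slitrk6, a transmembrane protein of neurons and the inner ear, had 0.44, 0.58 and 0.53 at 12 h and 0.92, 0.85, 0.92, 0.89 and 1.23 in males, a difference of 0.44 (adjusted p = 0.020) that was lost without any one 12 h replicate (adjusted p = 0.11, 0.052 and 0.067). Synpr, a synaptic vesicle protein, had means of 0.40 and 0.81 and a called difference of 0.41 (adjusted p = 0.012). These genes and Nt5e were the 4 of the 20 shared genes whose ratios also differed, and they were counted after their values were seen, as Synpr lay outside the rule for naming genes.

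The other shared genes with higher RNA included 2 known from hormone and stress responses. Klf15, a transcription factor induced by glucocorticoids, had 0.63, 0.56 and 0.52 at 12 h and between 0.80 and 1.07 in males. The groups did not overlap, but the difference of 0.34 did not pass (adjusted p = 0.23), and a second Klf15 probe gave 0.10 and 0.06. Gadd45g, a growth arrest and stress gene, had nearly equal means of 0.31 ± 0.06 (SD, n = 3) and 0.34 ± 0.08 (SD, n = 5), with a difference of 0.03 (-0.10 to 0.15). Lmcd1, a LIM domain protein, had means of 0.52 and 0.91. Abi3bp, a matrix protein, was the reverse in order, with 0.43 at 12 h and 0.28 in males, a difference of -0.15 (-0.36 to 0.07) that did not pass. Of the 20 shared genes, 13 had the larger ratio in males.

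The 4 genes lower in both were Wnt5b, Pcdh8, Lypd1 and Kcnh2, and their ratios were small. Wnt5b, a Wnt ligand, had -0.32, -0.16 and -0.35 at 12 h and -0.32, -0.25, -0.31, -0.39 and -0.33 in males. The groups overlapped, with a difference of -0.04 (-0.17 to 0.08), and a second probe gave -0.13 and -0.07. Pcdh8, a protocadherin, fell by 0.33 at 12 h and by 0.16 in males, and was well above background on 1 of 10 male and 8 of 10 female arrays, so its male-female ratio rests on signals near background. Lypd1 fell by 0.30 and 0.16. Nuak1, a kinase related to AMPK, just missed the 12 h threshold, with a mean of -0.32 (adjusted p = 0.065) against -0.67 in males. Another Nuak1 probe gave -0.23 at 12 h and -0.07 in males, so the probes disagree in males.

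**Figure D2:**
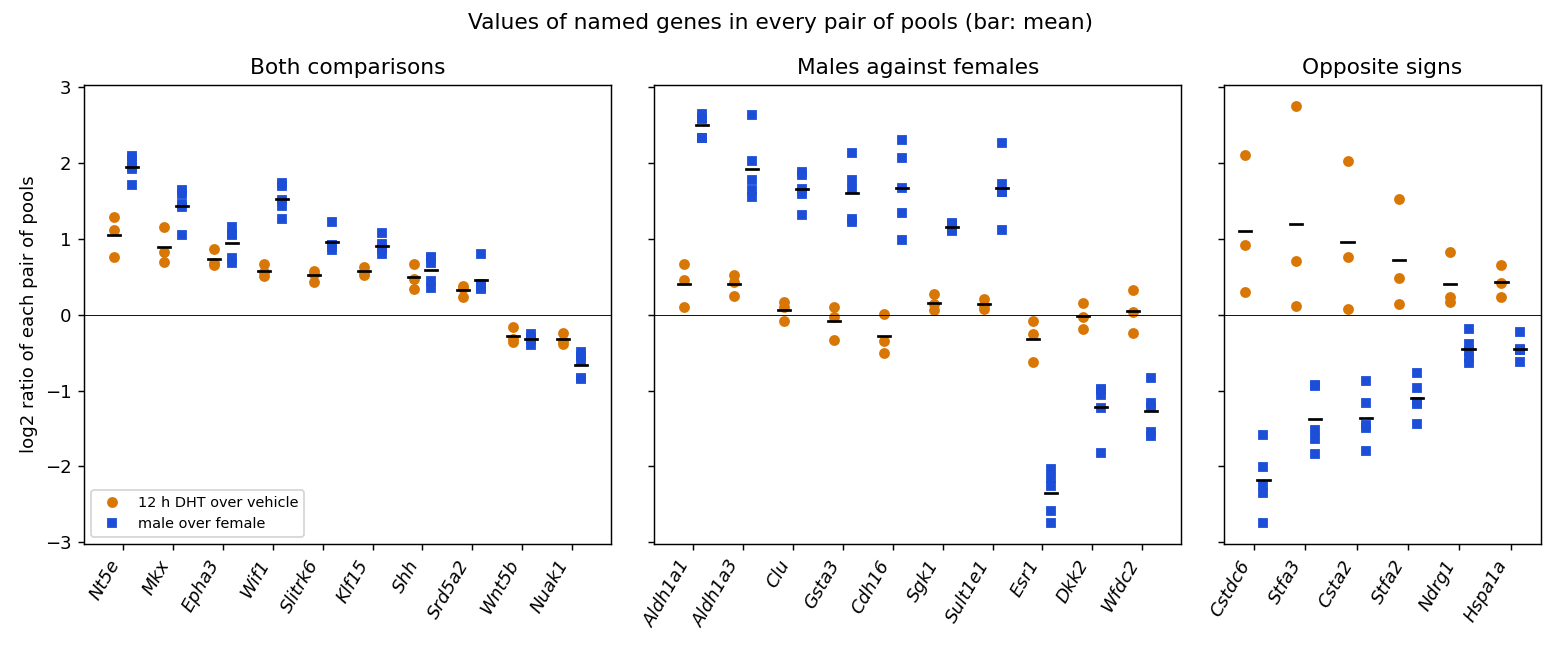
Log2 ratio of each pair of pools for 26 genes, with circles for the 3 pairs of 12 h DHT over vehicle, squares for the 5 pairs of male over female and a bar at each mean. In the left panel the 2 sets of points lie on the same side of 0, in the middle panel the male-female points lie far from 0 and the 12 h points near it, and in the right panel they lie on opposite sides of 0.

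Most genes with a large male-female ratio had a smaller ratio or one of opposite sign at 12 h. Of the 64 genes that differed at least 2-fold between males and females, the difference from the 12 h ratio was called for 35 of 46 that were higher in males and for 15 of 18 that were lower. These genes were chosen by a male-female ratio that also enters the difference, so their counts are a description. Aldh1a1, which makes retinoic acid from retinaldehyde, headed them. Its male-female ratios were 2.32, 2.33, 2.58, 2.65 and 2.59 and its 12 h ratios were 0.10, 0.46 and 0.67. No 12 h value came near a male-female value. Aldh1a1 was 5.64-fold higher in males (adjusted p = 1.9e-07) and 1.33-fold higher with DHT, which did not pass (adjusted p = 0.23), and the difference was 2.08 (1.67 to 2.49, adjusted p = 0.00038).

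A few genes of retinoic acid metabolism and signalling changed in males. Of 20 autosomal genes in that list, 6 were higher, 1 was lower and 13 did not pass in males, against 4.58% higher and 4.69% lower over all autosomal genes. At 12 h 0 passed (2 higher and 3 lower at an unadjusted p under 0.05), which at a share of 0.305% over all genes says nothing about this list, and the difference was called for 4 (1.96% over all genes). The list's medians were -0.00 in males and -0.03 at 12 h, close to the 0.00 and -0.00 of all autosomal genes, so the changes lay in a few members. Aldh1a3, a second enzyme of the same step, had male-female ratios from 1.55 to 2.63 and 12 h ratios of 0.43, 0.24 and 0.53. Its difference of 1.53 (adjusted p = 0.017) was lost without any one 12 h replicate (adjusted p = 0.082, 0.081 and 0.058). A second Aldh1a3 probe gave smaller means, 0.20 at 12 h and 0.55 in males. Crabp1, which binds retinoic acid in the cytoplasm, fell by 1.18 in males and had -0.27, -0.11 and 0.08 at 12 h. The Crabp1 difference of -1.08 passed (adjusted p = 0.0069). Dhrs3, which returns retinaldehyde to retinol, was higher in males by 0.38 and had -0.01 at 12 h; its difference (adjusted p = 0.043) was lost without 12 h replicate 1 or 3 (0.19 and 0.13) and without any male-female replicate but replicate 2 (0.053 to 0.091).

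Among steroid genes, Esr1 and Sult1e1 differed between the comparisons and Srd5a2 was not called different. Esr1, the oestrogen receptor alpha, had male-female ratios of -2.26, -2.15, -2.03, -2.58 and -2.75, a 5.11-fold higher level in females. Its 12 h ratios were -0.08, -0.62 and -0.25, all below 0 and none near the male-female values. The 12 h mean of -0.32 did not pass (adjusted p = 0.36), and the difference of -2.03 (-2.44 to -1.63) did (adjusted p = 0.00038), while a second Esr1 probe gave -0.02 and -0.06 and so did not show it. Sult1e1, which inactivates oestrogens by sulfation, was 3.18-fold higher in males, with 0.13, 0.20 and 0.07 at 12 h (difference adjusted p = 0.0044). Srd5a2 had 0.38, 0.23 and 0.35 at 12 h and 0.37, 0.34, 0.36, 0.80 and 0.41 in males, and the groups overlapped. Its 12 h ratio did not pass (adjusted p = 0.11), and the difference of 0.13 lay between -0.09 and 0.36. Of 26 autosomal steroid genes, 3 were higher and 1 was lower in males, against 4.58% and 4.69% over all autosomal genes. At 12 h 0 passed, which at a share of 0.305% over all genes says nothing about this list. At an unadjusted p under 0.05, 3 were higher and 4 lower at 12 h (6.32% and 7.61% of all).

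Clu, Gsta3, Cldn8 and Calb1, which were among the largest differences, were higher in males and did not pass at 12 h. Clu, a secreted chaperone, had 1.31, 1.88, 1.66, 1.84 and 1.59 in males and -0.08, 0.10 and 0.17 at 12 h, a difference of 1.59 (adjusted p = 0.00089). Gsta3, a glutathione transferase, was 3.05-fold higher in males with a 12 h mean of -0.09. Cldn8, a tight junction protein, and Calb1, a calcium-binding protein, had male-female means of 1.68 and 1.53 and 12 h means of 0.15 and -0.09. The differences of Gsta3, Cldn8 and Calb1 passed (adjusted p = 0.0019, 0.0032 and 0.0057). Cdh16, a cadherin of kidney and duct epithelium, had 12 h ratios of 0.01, -0.35 and -0.50 against 0.98 to 2.30 in males (difference 1.95, adjusted p = 0.0069). For ccdc198 the difference of 1.55 (adjusted p = 0.019) was lost without any one 12 h replicate (adjusted p = 0.085, 0.070 and 0.077). Sct, which encodes the hormone secretin, had a male-female mean of 1.14 and a 12 h mean of -0.05 (adjusted p = 0.0079). In the other direction Wfdc2, a secreted protein of duct epithelium, fell by 1.27 in males and had 0.04, -0.23 and 0.32 at 12 h (difference adjusted p = 0.0020).

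Of 22 autosomal genes that androgen is known to induce in adult prostate or in prostate cancer cells, 9 were higher and 2 lower in males, against 4.58% and 4.69% over all autosomal genes. At 12 h 1 was higher and 0 were lower (0.138% and 0.167% of all), with 9 higher and 2 lower at an unadjusted p under 0.05 (6.32% and 7.61% of all), and the difference was called for 5 (1.96% of all). The list's medians were 0.04 in males and 0.14 at 12 h, against 0.00 and -0.00 over all genes. Sgk1, a kinase induced by steroids, had 1.12, 1.20, 1.22, 1.14 and 1.11 in males and 0.27, 0.06 and 0.14 at 12 h. The male-female values were tightly grouped, and the difference of 1.00 (0.77 to 1.23) passed with adjusted p = 0.00089. Fkbp5, a co-chaperone of steroid receptors, had 0.25, 0.29 and 0.37 at 12 h and 0.41, 0.77, 0.79, 0.81 and 0.76 in males. Its 12 h mean of 0.30 missed the threshold (adjusted p = 0.087), and its difference (adjusted p = 0.040) was lost without any one 12 h replicate (0.16, 0.12 and 0.087) and without male-female replicate 2, 3, 4 or 5 (0.061 to 0.096). Another Fkbp5 probe gave smaller means, 0.06 at 12 h and 0.37 in males. Errfi1 and Cebpd, an inhibitor of EGF receptor signalling and a transcription factor, had 12 h means of 0.35 and 0.38. Their male-female means were 0.72 and 0.53, with no called difference.

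The promoter of Sgk1 is shown because, among the promoters of the autosomal genes tested, it alone held the full androgen and glucocorticoid receptor palindrome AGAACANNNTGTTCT, and that of Nt5e is shown because it had the largest ratio among the genes past the 12 h threshold. Sequences are from RefSeq (GRCm38.p6), 250 bases before to 50 bases after the annotated start, 5′ to 3′ on the plus strand, at chr10:21993640-21993939 for Sgk1 and chr9:88327359-88327658 for Nt5e. Capitals mark the half-site AGAACA on either strand, and the palindrome is a pair of such half-sites.
Sgk1: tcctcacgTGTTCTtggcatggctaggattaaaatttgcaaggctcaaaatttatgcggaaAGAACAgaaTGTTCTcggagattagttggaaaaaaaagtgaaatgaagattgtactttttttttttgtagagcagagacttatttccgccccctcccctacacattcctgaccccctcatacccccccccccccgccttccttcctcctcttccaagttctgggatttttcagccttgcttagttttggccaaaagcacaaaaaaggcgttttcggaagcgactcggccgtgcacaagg
Nt5e: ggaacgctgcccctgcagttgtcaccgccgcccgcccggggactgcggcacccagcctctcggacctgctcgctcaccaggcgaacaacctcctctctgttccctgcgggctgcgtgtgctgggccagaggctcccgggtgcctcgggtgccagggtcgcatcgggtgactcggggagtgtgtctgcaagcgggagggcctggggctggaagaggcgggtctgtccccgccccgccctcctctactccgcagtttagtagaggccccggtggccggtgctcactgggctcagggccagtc
The Sgk1 palindrome began 189 bases before the start, in 1 of the 6 Sgk1 promoters of the table, of which 3 held a half-site. The Nt5e window held none. A half-site was present in 14.5% of 17116 promoters of autosomal genes tested, in 2 of 16 promoters (12.5%) of 13 matched genes among the 16 that rose in both comparisons, and in 10 of 37 promoters (27.0%) of 25 matched genes among the 35 at least 2-fold higher in males with a called difference. Sgk1 belongs to that last group and gave 6 of its 37 promoters and 3 of its 10 with a half-site. Promoters of 1 gene are not separate observations. These matches are of letters in these windows only.

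Regulators of prostatic budding were mostly above 0 at 12 h, in 22 of 29 cases (49.9% of all autosomal genes). Of these regulators, 1 passed the test at 12 h (0.305% of all). In males, 13 were higher and 1 was lower (4.58% and 4.69% of all). At 12 h there were 11 higher and 2 lower at an unadjusted p under 0.05 (6.32% and 7.61% of all). Shh, the hedgehog ligand of the epithelium, had 0.34, 0.67 and 0.47 at 12 h and 0.35, 0.44, 0.76, 0.69 and 0.74 in males. The groups overlapped, the 12 h mean of 0.49 missed the threshold (adjusted p = 0.077), and the difference of 0.10 lay between -0.19 and 0.40. Fgf10, a mesenchymal growth factor, had means of 0.25 at 12 h and 0.20 in males, and its receptor Fgfr2 had 0.29 and 0.46. Sox9 and Gata3, transcription factors of the budding epithelium, were higher in males by 0.79 and 0.62 and had 12 h means of 0.16 ± 0.02 and 0.22 ± 0.14 (SD, n = 3). Their differences passed (adjusted p = 0.016 and 0.027); that of Sox9 was lost without any one 12 h replicate (0.082, 0.064 and 0.060) and that of Gata3 without 12 h replicate 1 or 2 or male-female replicate 5 (0.13, 0.11 and 0.054).

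Some Wnt genes were higher and others lower in males. Of 40 members, 7 were higher, 8 were lower and 25 did not pass in males, against 4.58% and 4.69% over all autosomal genes. At 12 h Wif1 was higher and Wnt5b lower (0.305% of all genes passed), with 5 higher and 4 lower at an unadjusted p under 0.05 (6.32% and 7.61% of all), and the difference was called for 7 (1.96% of all). Dkk2, a secreted antagonist, had -0.97, -0.99, -1.82, -1.23 and -1.06 in males and -0.18, -0.04 and 0.16 at 12 h. The groups were far apart, with a difference of -1.19 (adjusted p = 0.0040). Wnt7a, a ligand needed in the female tract, fell by 0.77 in males and had a 12 h mean of -0.11 (difference adjusted p = 0.0019). Wnt4 was higher in males by 0.94 with a 12 h mean of 0.20; its difference (adjusted p = 0.0092) was lost without 12 h replicate 1 (0.061). Rspo2, which strengthens Wnt signalling, fell by 1.04 in males and had -0.01, 0.13 and -0.60 at 12 h, and its difference (adjusted p = 0.014) was lost without 12 h replicate 1 or 2 (0.086 and 0.073). Sfrp2, another secreted Wnt-binding protein, had means of 0.50 at 12 h and 0.56 in males and no called difference.

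Of 30 BMP, activin and TGF-beta genes, the difference was called higher for Id2 and lower for Inhba, and of 33 FGF, IGF and EGF family genes it was called higher for Igfbp2 and lower for Fgf18 and Igf1, against 1.96% of all autosomal genes in either direction. Id2, an inhibitor of basic helix-loop-helix transcription factors, had 0.01, -0.01 and 0.17 at 12 h and 0.36, 0.43, 0.33, 0.45 and 0.31 in males. The groups did not overlap, and the difference (adjusted p = 0.028) was lost without 12 h replicate 1 or 2 (0.13 and 0.11) and without male-female replicate 2 or 4 (0.062 and 0.071). Fgf18, a secreted growth factor, had a 12 h mean of -0.04 and fell by 0.49 in males, and its difference (adjusted p = 0.026) was lost without any one 12 h replicate (0.082, 0.073 and 0.11) and without male-female replicate 4 or 5 (0.055 and 0.053). Igf1, insulin-like growth factor 1, had a 12 h mean of 0.07 and fell by 0.39 in males, and its difference (adjusted p = 0.027) was lost without any one 12 h replicate (0.065, 0.12 and 0.080) and without male-female replicate 4 (0.055). Amhr2, the anti-Mullerian hormone receptor, had -1.25, -1.41, -0.78, -0.69 and -1.25 in males and -0.35, -0.50 and -0.37 at 12 h. The 12 h values were all below 0, did not pass (adjusted p = 0.22), and the difference of -0.67 did not pass either (adjusted p = 0.091). Inhba, an activin subunit, fell by 0.80 in males with a 12 h mean of -0.28, and its difference (adjusted p = 0.015) was lost without 12 h replicate 1 or 2 (0.092 and 0.052). Igfbp2, an IGF-binding protein, was 2.02-fold higher in males and had 0.17, 0.25 and 0.45 at 12 h; its difference (adjusted p = 0.0090) was lost without 12 h replicate 1 (0.064). In the hedgehog list, 3 of 17 genes were higher and 4 lower in males, 0 passed at 12 h (1 higher at an unadjusted p under 0.05), and no difference was called. Of the 30 BMP, activin and TGF-beta genes, 6 were higher and 6 lower in males and 0 passed at 12 h (2 higher and 3 lower at an unadjusted p under 0.05). Of the 33 FGF, IGF and EGF family genes, 6 were higher and 5 lower in males and 0 passed at 12 h (3 higher and 3 lower at an unadjusted p under 0.05). Over all autosomal genes 4.58% were higher and 4.69% lower in males, 0.305% passed at 12 h, and 6.32% were higher and 7.61% lower at an unadjusted p under 0.05, so the 12 h counts of these lists lie near or below those of all genes.

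Some genes had ratios of opposite sign. Of the 291 genes called both for the difference and between males and females, 156 had ratios of opposite sign. In 49 of these the 12 h ratio reached an unadjusted p under 0.05. An opposite 12 h ratio enlarges the difference by which these genes were called, so these counts are a description. Over all 17360 autosomal genes, 9364 had ratios of the same sign. The largest opposite changes were in genes of the stefin A cluster, inhibitors of cysteine proteases found in squamous epithelium and neutrophils. Cstdc6 had -2.0, -2.24, -1.59, -2.34 and -2.75 in males and 0.30, 0.92 and 2.10 at 12 h. The 12 h values were all above 0, lowest in replicate 1 and highest in replicate 3. The 12 h mean of 1.11 did not pass (adjusted p = 0.12), while the male-female mean (0.22-fold, adjusted p = 4.0e-05) and the difference of -3.29 (adjusted p = 0.00089) did, also for Cstdc6 without 12 h replicate 3 (adjusted p = 0.0050). Stfa3, Csta2 and Stfa2 had the same order of 12 h pairs, with 0.11, 0.71 and 2.75 for Stfa3, and fell in males by 1.37, 1.36 and 1.10. These genes are near-identical copies, so their probes may read each other's RNA and they are not separate observations.

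Both tests were passed with opposite signs by 2 genes, Csta1, of the same stefin family, and Avpr1a, the vasopressin receptor, which were named after their values were seen. Avpr1a had 0.49, 0.44 and 0.28 at 12 h and -0.48, -0.27, -0.20, -0.40 and -0.14 in males, with a difference of -0.70 (adjusted p = 0.00089). Ndrg1, a stress gene also induced by androgen in prostate cancer cells, had 0.16, 0.23 and 0.83 at 12 h and -0.47, -0.19, -0.58, -0.64 and -0.39 in males. The 12 h mean did not pass (adjusted p = 0.14), and the difference of -0.86 did (adjusted p = 0.012). Hspa1a, the inducible Hsp70 heat shock protein, had means of 0.43 and -0.45 and a difference of -0.88 (adjusted p = 0.0078).

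Beyond the genes called in both, the sign of the 12 h ratio leaned the male way. Of the 795 genes higher in males, 620 (78.0%) had a 12 h ratio above 0, against 49.9% of all autosomal genes, and 230 (28.9%) reached an unadjusted p under 0.05 in that direction against 6.32% of all. Of the 815 genes lower in males, 503 (61.7%) had a 12 h ratio below 0 against 50.1% of all, and 94 (11.5%) reached an unadjusted p under 0.05 against 7.61%. The 12 h medians were 0.08 and -0.03 where the male-female medians were 0.29 and -0.24. In the first 12 h pair alone the shares were 59.7% and 48.1%, against 46.8% of all genes above 0 and 53.2% below, so that pair showed the lean for genes higher in males and not for those lower. The second pair gave 78.5% and 66.3%, and the third 78.1% and 63.1%. With arrays centred by their median in place of loess, 36.7% of the genes lower in males were below 0 at 12 h, where 61.7% of all genes lay above 0. Over all 17360 genes the mean ratios correlated at r = 0.24 (Spearman's rho = 0.16), and at 0.02, 0.28 and 0.20 with each 12 h pair; genes are not independent replicates.

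**Figure D3:**
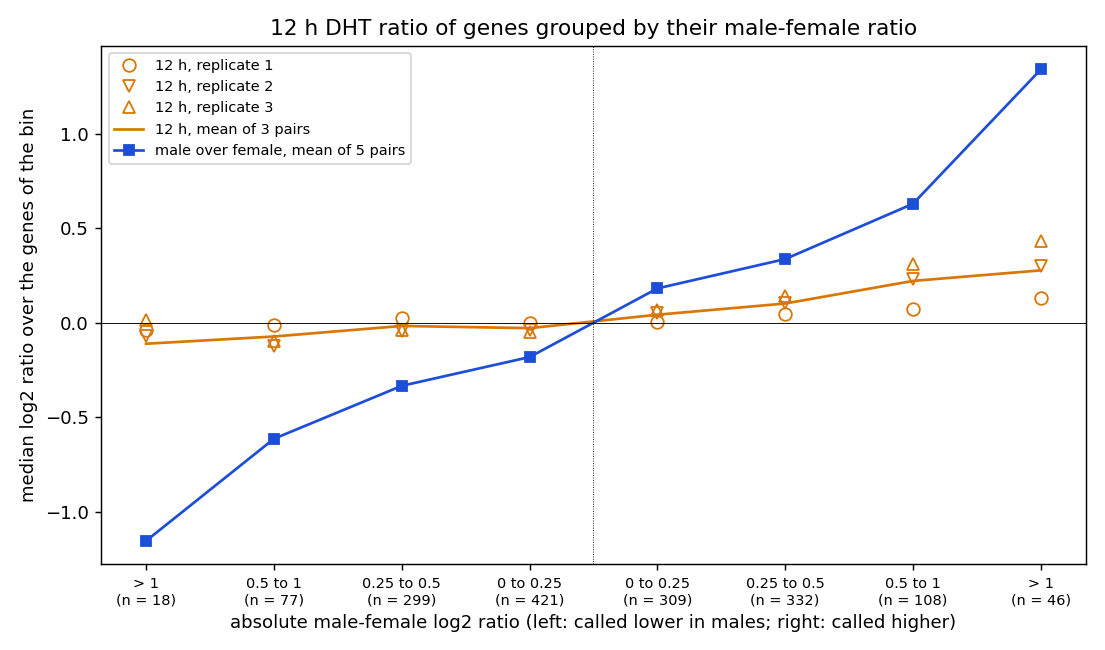
Median log2 ratio, on the y axis, of the genes called lower (left) or higher (right) in males, grouped on the x axis by the size of their male-female ratio, with the male-female median (squares, mean of 5 pairs), the 12 h median (line, mean of 3 pairs) and each 12 h pair (open symbols). For genes higher in males the 12 h medians of the 4 groups were 0.04, 0.10, 0.22 and 0.28 where the male-female medians were 0.18, 0.34, 0.63 and 1.34, and for genes lower in males they stayed between -0.11 and -0.02.

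Many epithelial markers were higher in males, and their 12 h ratios were of similar size without passing the test. Of 27 markers, 13 were higher and 1 was lower in males, against 4.58% and 4.69% over all autosomal genes. At 12 h 0 passed, which at a share of 0.305% over all genes says nothing about this list. At an unadjusted p under 0.05, 13 were higher and 1 lower at 12 h (6.32% and 7.61% of all). No difference was called for these markers (1.96% of all). Their medians were 0.36 in males and 0.27 at 12 h, against 0.00 and -0.00 over all genes. By pair, their mean was -0.04, 0.35 and 0.54 at 12 h and 0.06, 0.35, 0.50, 0.38 and 0.22 in males. Cdh1, Krt19 and Krt7, an epithelial cadherin and keratins, had 12 h means of 0.46, 0.44 and 0.47 and male-female means of 0.54, 0.45 and 0.64. In bulk tissue, a change in the number of cells of a type and a change in RNA per cell cannot be told apart. Anxa1, Tspan1 and Krt23, which are membrane-associated or keratin genes of epithelium, had the same order of 12 h pairs as the marker mean, with 0.13, 0.70 and 1.44 for Anxa1, and male-female means of 1.44, 1.13 and 1.18. With the marker mean as a covariate, all 340 differences were called again among 476, but 666 genes were called between males and females and 0 at 12 h (2370 at an unadjusted p under 0.05).

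Matrix and mesenchyme genes were lower in males in a minority of cases and did not pass at 12 h. Of 36 matrix genes, 1 was higher and 10 were lower in males, against 4.58% and 4.69% over all autosomal genes. At 12 h 0 passed (0.305% of all), with 3 higher and 1 lower at an unadjusted p under 0.05 (6.32% and 7.61% of all). The difference was called for 1 (1.96% of all), Nid2, a basement membrane protein. Nid2 had -0.48, -0.41, -0.66, -0.66 and -0.26 in males and 0.06, 0.03 and 0.18 at 12 h. The groups did not overlap, and the difference of -0.59 passed (adjusted p = 0.0078). Col8a1, a short-chain collagen, fell by 1.74 in males and had -0.38, -0.33 and -1.17 at 12 h, with a difference of -1.11 that missed the threshold (adjusted p = 0.057). Of 22 mesenchyme markers, 1 was higher and 9 were lower in males and 0 passed at 12 h. At an unadjusted p under 0.05, 1 of these markers was higher and 0 were lower at 12 h. With 0.305% of all genes passing at 12 h, the 0 says nothing about either list. The matrix list's mean ranged from -0.48 to 0.06 over the male-female pairs and from -0.06 to 0.09 over the 12 h pairs.

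**Figure D4:**
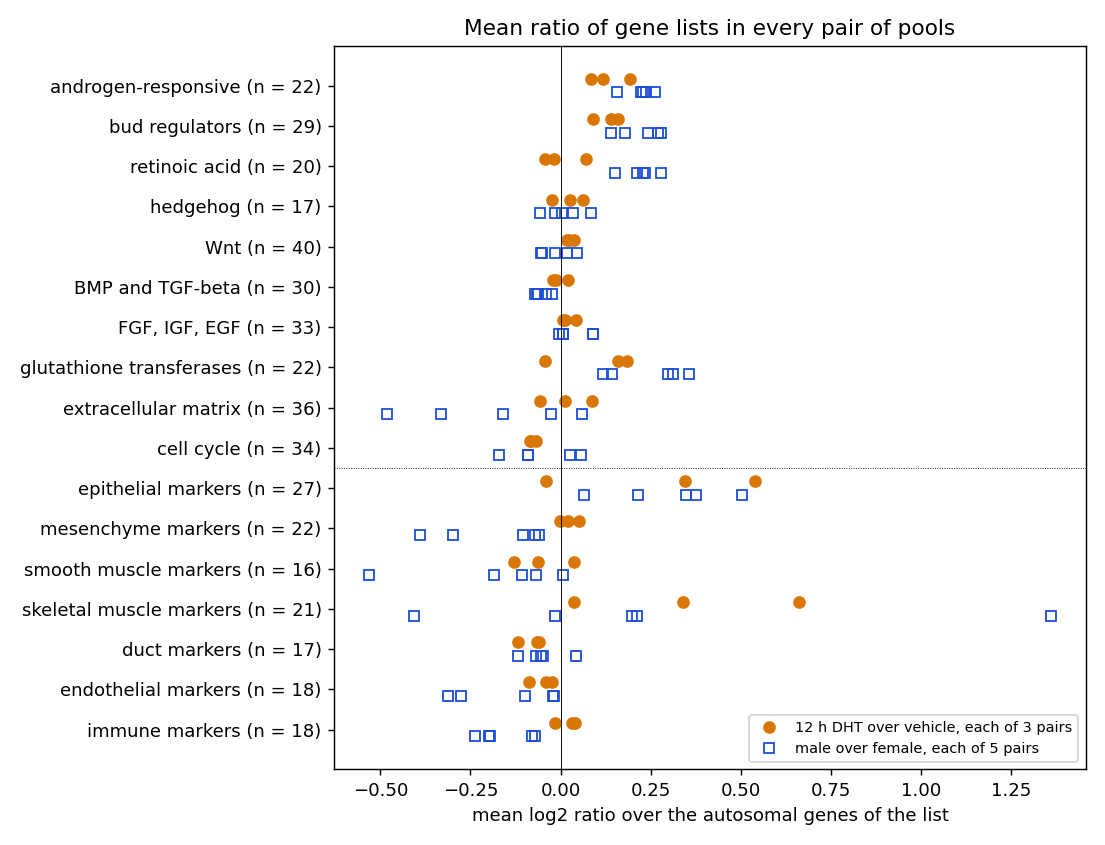
Mean log2 ratio over the autosomal genes of each list, on the x axis, in every pair of pools, with filled circles for the 3 pairs of 12 h DHT over vehicle and open squares for the 5 pairs of male over female; lists of themes are above the dotted line and lists of cell type markers below it. Androgen-responsive genes and bud regulators lie above 0 in all pairs of both kinds, retinoic acid genes lie above 0 in every male-female pair and around 0 at 12 h, and epithelial and skeletal muscle markers vary widely between pairs.

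Among the 29 genes lower at 12 h, 25 did not pass in males, where 9.27% of all autosomal genes passed and 4.69% were lower. That does not show that they differed between the comparisons. The difference was called for 13 of the 29 (1.96% of all), and 17 of the 29 also had a ratio below 0 in males. Over all 17360 autosomal genes, 8817 had a ratio above 0 in males. The 12 h ratio by which the 29 were chosen also enters the difference, so the 13 is a description. Of the 29, 21 lay in the dimmest quartile of genes by signal, and their ratios lay between -0.33 and -0.20. Gna14, a G protein subunit, had -0.27, -0.30 and -0.43 at 12 h and -0.00, -0.06, 0.23, 0.02 and 0.02 in males. All 12 h values lay below all male-female values, and its difference of 0.38 (adjusted p = 0.025) was lost without any one 12 h replicate (0.070, 0.070 and 0.11) and without male-female replicate 4 (0.051). Aqp6, a water channel gene, fell by 0.27 at 12 h and had -0.03 in males. Cell cycle genes had a 12 h median of -0.08 and a male-female median of -0.06 over 34 members. No cell cycle gene passed at 12 h (0.305% of all autosomal genes did). At an unadjusted p under 0.05, 0 were higher and 8 lower at 12 h (6.32% and 7.61% of all). E2f1, a transcription factor of S phase entry, differed between the comparisons, with -0.15 at 12 h and 0.16 in males. Its difference (adjusted p = 0.022) was lost without 12 h replicate 1 or 3 (0.11 and 0.097).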

How the data were processed

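Spot intensity in both channels was taken from the deposited scanner files, which the authors made with Agilent Feature Extraction 7.5.1, per the file headers. These files also hold the software's log10 ratio of Cy5 over Cy3, limited to -2 and 2, and the deposited series matrix holds log2 ratios whose column medians lay between -0.0112 and 0.0108; how the authors centred them is not stated. The matrix columns correlated at 0.54 to 0.81 with the scanner ratios turned to DHT over vehicle or male over female, so they were taken as already turned. Both were used as alternatives. The authors' genome build is not given in the sources used here.

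Mean signals and median backgrounds were corrected with limma 3.58.1 in R 4.3.3 (normexp, offset 50) and normalised by loess with control spots given no weight; outlier spots were set to missing. Ratios were turned one way, and spots of a probe and then the 2 dye-swapped arrays of a pair were averaged. Of 41174 probes, 35477 were kept, those with a signal well above background in either channel in 6 or more of 24 arrays. The brightest probe of a gene stood for it. Of the probes, 21445 were named by accession, 5431 by symbol and 4636 by synonym in the RefSeq table, and 9662 kept the name in the file. That table (GRCm38.p6) gave the chromosome, 1 to 19 for autosomes.

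All 12 pairs of pools, including 4 pairs at 6 h, were fitted together (lmFit, eBayes, two-sided), so the comparisons share each gene's estimate of spread. P-values were adjusted by Benjamini-Hochberg over 24717 genes, with 0.05 as the threshold, and counted over autosomal genes; 31 genes lacked a replicate. SD is over pairs of pools. The fit was tested on simulated data.

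Genes were named by rule: the 8 largest called differences in each direction among genes called in males; the 8 largest shared changes and the 8 largest 12 h changes in each direction; the 5 largest opposite changes in each direction; list members called for the difference or at 12 h or leading their list; and 18 genes named by earlier results. The genes, the lists and this rule were chosen with earlier results of these data known. The alternatives were other background, normalisation, value source, filter, probe and fit settings, an epithelial covariate, a replicate block, and each replicate left out. A block by the pool numbers of the source names was added after seeing the data.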

Additional observations from a re-analysis of the deposited data

Results flagged for a closer look

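Of 82 named genes, 5 had a male-female pair far from the other 4 by Dixon's criterion, which chance meets in about 1 group in 20. Fkbp5 had 0.41 in replicate 1 against 0.76 to 0.81 in the others. Slitrk6 had 1.23 in replicate 5 against 0.85 to 0.92, and Srd5a2 had 0.80 in replicate 4 against 0.34 to 0.41. Gna14 and Lix1, both lower at 12 h, had 0.23 and 0.18 in replicate 3 against -0.06 to 0.02 and -0.14 to -0.06. What set these pairs apart was not tested.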

How the results depend on the processing

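The 340 genes whose ratios differed became 226 with the scanner software's ratios, 158 in a fit of the 8 pairs alone, 156 with a replicate block and 179 with a block by the pool numbers of the source names, an alternative chosen after seeing the data, and 111 to 345 with 1 replicate left out. The 1610 between males and females became 666 with the epithelial covariate and 992 to 1616 with 1 replicate left out. The 53 at 12 h (limma) became 0 with the series matrix, without background correction, with the block by source names or with the covariate (1966, 2155, 2221 and 2370 at an unadjusted p under 0.05), 2 in the fit of 8 pairs, 5 with the replicate block, 16 with the filter at 12 arrays, 18 with median centring, 29 with the scanner ratios and 95 with an offset of 10, and 0 to 35 with 1 replicate left out. The 20 shared genes became 0, 0, 0 and 0 in the first 4 of these, 2 in the fit of 8 pairs, 5 with the block, 11 with the filter at 12 arrays, 12 with the scanner ratios and 0 to 16 with 1 replicate left out. The causes were not tested.

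Median centring moved the share of higher calls from 48.2% to 32.2% for the difference, from 49.4% to 36.5% in males and from 45.3% to 88.9% at 12 h, and the share of male-lower genes below 0 at 12 h from 61.7% to 36.7%. Deviations of same-numbered pairs correlated at 0.24, 0.01 and 0.19. The 12 h replicates 1 and 3 correlated best with their own number, but replicate 2 with male-female replicate 3. As replicate 2 did not match, these values do not decide whether replicate numbers pair the samples. The source names number male-female replicates 1 and 2 the other way, under which the first 2 correlations are 0.051 and -0.0045. Of 47 named genes called for the difference, 20 kept the call in all 21 alternatives, among them Aldh1a1, Esr1, Clu, Gsta3, Sgk1, Sult1e1, Dkk2, Wnt7a, Wif1 and Cstdc6; 7 lost it in 1 to 3 and 20 in more. Of 70 called in males 60 kept the call in all 21, and of 17 called at 12 h none did. No called value of a named gene changed sign in these alternatives. Of values not called, 22 of 35 differences, 35 of 65 12 h ratios and 10 of 12 male-female ratios of named genes changed sign in some alternative.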
